A study of Mus musculus with 33 samples.

Results

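Hematopoietic stem cells (HSCs) and common lymphoid progenitors (CLPs) were compared in untreated old mice, gene by gene. The comparison took the 4 HSC libraries and the 4 CLP libraries labelled as untreated in cohort 2, so 8 of the 33 libraries of the series, and every one of the 55376 gene symbols counted in them. Untreated old wild type mice carry the name O-WT. They were C57BL/6 males of 24 to 29 months, and nothing in the sources used here gives them a transgene or deletion. Mice of the same strain, sex and age that drank 12 mM nicotinamide riboside (NR), a precursor of NAD+, for 4 to 6 weeks are named O-NR. Their 4 HSC and 4 CLP libraries share no library with the O-WT comparison and were used to repeat it. The remaining libraries come from granulocyte and macrophage progenitors and from another cohort. HSCs had been sorted from bone marrow as cells without lineage markers or IL7Rα that carry c-Kit, Sca1 and CD150 and lack CD34 and Flk2. The study defines CLPs in its bone marrow analysis as lineage-negative cells that carry IL7Rα and Flk2. It describes the sort for HSCs only. The sources do not say how many mice or cells went into a library, so the p-values below measure the spread between these libraries, which may be partly technical. In bulk libraries, more cells that use a gene and more RNA of it per cell cannot be told apart.

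An HSC divides rarely and keeps the ability to form every blood lineage, which depends on a set of transcription factors that includes Gata2, Hlf, Mecom and Meis1. A CLP has left that state: it responds to the cytokines IL-7 and Flt3 ligand, divides often, and gives rise mainly to B cells. On that path Ebf1 and Pax5 establish B cell identity, while Rag1, Rag2 and terminal transferase rearrange and diversify the immunoglobulin genes. In old mice the HSC pool is known to grow and to lean toward the platelet and myeloid side, and CLPs are known to become scarce.

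The O-WT HSC libraries held between 8434214 and 14479453 counted reads and the O-WT CLP libraries between 4792380 and 12058957. Levels are given in CPM, the read count normalised to sequencing depth, on library totals scaled by the TMM method. Olfactory and vomeronasal receptor genes, which blood cells are not known to use, averaged 1.04 to 2.43 CPM per gene in the HSC libraries and 1.68 to 3.75 CPM in the CLP libraries. The highest of these averages belonged to CLP library 3, which was also the shallowest. That background was not corrected for gene length, so it is no floor for a single gene, but several genes below lie in its range in the cell type where they are low. Each of the 16 HSC and CLP libraries was nearest, in Euclidean distance over log2 CPM, to another library of its own cell type. The smallest distance between the cell types was 130, less than the largest within HSCs, 140, and within CLPs, 164.

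HSCs and CLPs differed in 4980 of the 19828 genes tested, which is 25.1%. Of these genes, 3240 were higher in HSCs, or 16.3% of those tested, and 1740 were higher in CLPs, or 8.78%. These shares are the background for each O-WT list count below. The lists were chosen with earlier results of these data known, so a count beside its background is a description and no test. A gene was called when the edgeR quasi-likelihood test gave an adjusted p below 0.05 and the fold exceeded 1.5. The median change of the called genes was 1.15 on the log2 scale in either direction. Changes over 16-fold were found for 44 genes higher in HSCs and for 75 genes higher in CLPs. The 4 HSC values and the 4 CLP values did not overlap for 5583 genes, called or not, or 28.2% of those tested. The excess of calls in the HSC direction depended on the scaling and the filter: with upper quartile scaling 2160 genes were higher in HSCs and 2163 in CLPs, and the median log2 change of all genes moved from -0.08 to -0.27. With a stricter minimum of 10 CPM the counts were 1969 and 1872.

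The same contrast in the O-NR libraries called 3047 genes higher in HSCs, 17.1% of the 17812 tested, and 2348 higher in CLPs, 13.2%. Of the 3240 genes higher in O-WT HSCs, 3222 were tested again and 2608 were called in the same direction. That is 80.5% of the 3240 and 85.6% of the O-NR calls. Of the 1740 genes higher in O-WT CLPs, 1665 were tested again and 1440 were called in the same direction. That is 82.8% of the 1740 and 61.3% of the O-NR calls. The sign was the same for 3216 of the 3222 and for 1661 of the 1665. The log2 changes of the 2 contrasts differed by a median of 0.193 over the 4887 genes called in O-WT and tested in O-NR. A test of whether the HSC to CLP difference itself depended on NR, over all 16 libraries and 22478 genes, called 1 gene at an adjusted p below 0.05, Ighm, which is described with the immunoglobulin genes. At an unadjusted p below 0.05 it gave 371 genes. DESeq2 also called 1 gene, but a different one, Cd83 (adjusted p 0.0177), which edgeR did not call (adjusted p 0.161), and it did not call Ighm (adjusted p 0.204).

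**Figure D1:**
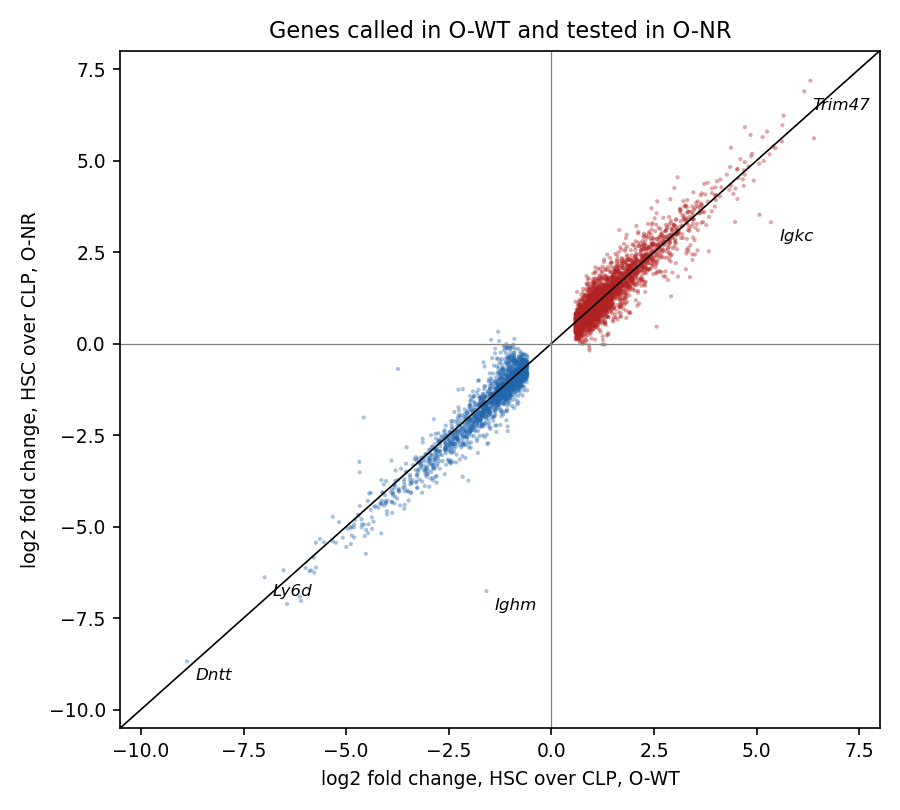
Each point is a gene called in the O-WT comparison and tested in the O-NR comparison, with its log2 fold change of HSC over CLP in O-WT libraries on the x axis and in O-NR libraries on the y axis; red genes were higher and blue genes lower in O-WT HSCs, and the black line marks equal changes. Dntt lies at the lower left, at -8.88 and -8.68, and Ighm lies well below the line, at -1.58 and -6.76.

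The transcripts of the sort antigens followed the gate of HSCs and the definition of CLPs, which is a check of the labels and no finding. Slamf1, which encodes CD150, was counted at 101, 64.9, 75.5 and 94.2 CPM in the 4 HSC libraries and at 8.24, 10.3, 15.3 and 5.21 CPM in the 4 CLP libraries. Il7r, the IL-7 receptor chain, stood at 3.49, 7.02, 6.08 and 3.36 CPM in HSCs and at 354, 262, 210 and 320 CPM in CLPs. Flt3, which encodes Flk2, lay between 13.8 and 19.7 CPM in HSCs and between 356 and 683 CPM in CLPs. No library of either type entered the range of the other for these genes. The stem cell factor receptor Kit was 6.26-fold higher in HSCs, Ly6a, which encodes Sca1, was 3.97-fold higher, and Cd34 was 3.09-fold higher in CLPs. Markers that no gate used went the same way. Procr, the endothelial protein C receptor (chr2:155751117-155755471 in mm10), was counted at 113, 81.2, 89.9 and 91.4 CPM in HSCs against 3.42, 2.76, 3.90 and 2.98 CPM in CLPs, a log2 change of 4.85 with a standard error (SE) of 0.22 and an adjusted p of 2.23e-14. Cd48, a SLAM family protein that HSCs are known to lack, was 59.4-fold higher in CLPs, at 30.4 to 48.4 CPM against 0.388 to 0.961 CPM.

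**Figure D2:**
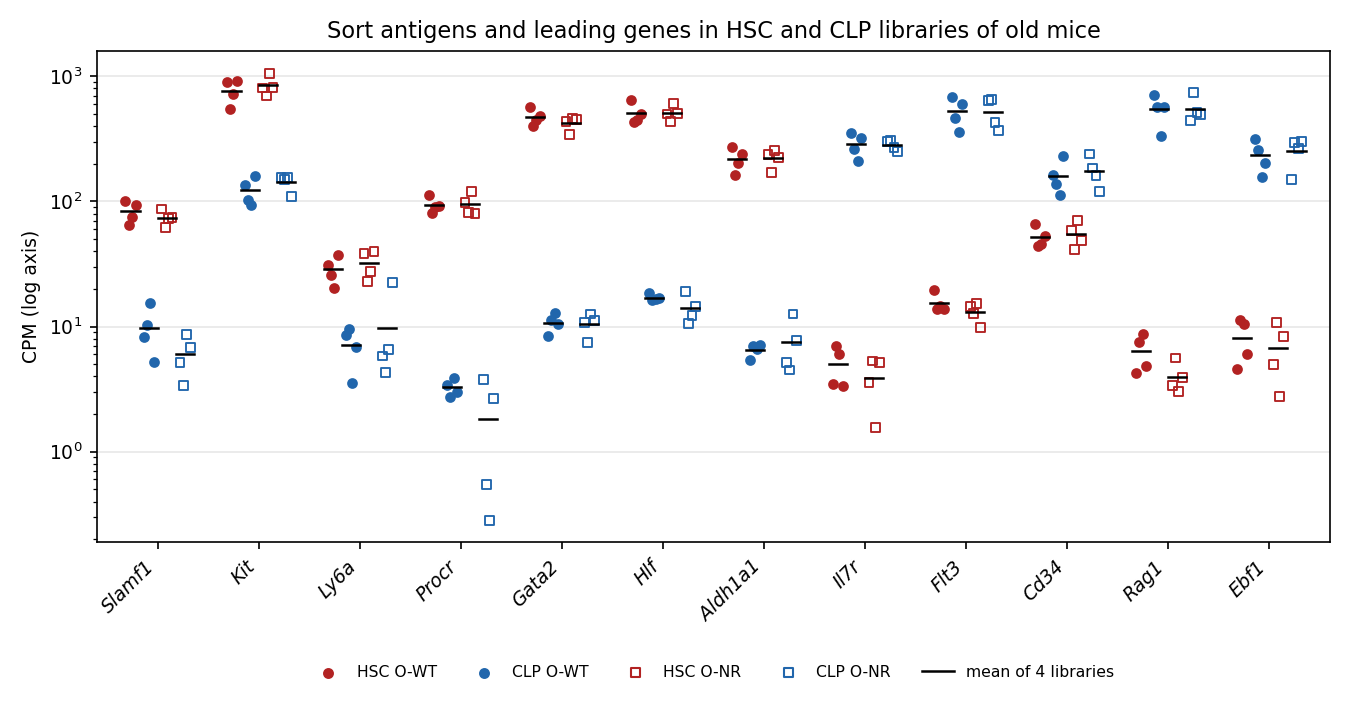
CPM on a log axis for 12 genes in each of the 16 HSC (red) and CLP (blue) libraries, O-WT as filled circles and O-NR as open squares, with a black line at the mean of each 4. Slamf1, Kit, Procr, Gata2, Hlf and Aldh1a1 sit above in HSCs, and Il7r, Flt3, Rag1 and Ebf1 sit above in CLPs, with no shared range.

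Nearly the whole set of stem cell transcription factors was higher in HSCs. Of 24 listed factors, all were tested, 22 were called higher in HSCs (background 16.3%), with a median log2 change of 2.53 against -0.0756 over all genes tested. Across every alternative fit the number stayed between 20 and 22. Gata2, a zinc finger factor needed to maintain HSCs (chr6:88193891-88207032), was counted at 570, 398, 445 and 479 CPM in HSCs and at 8.37, 11.3, 12.9 and 10.5 CPM in CLPs. That is a 44-fold difference (log2 change 5.46, SE 0.26, adjusted p 4.45e-14). Hlf, a bZIP factor that marks HSCs, stood at 645, 433, 445 and 503 CPM in HSCs, while its 4 CLP values fell between 16.4 and 18.4 CPM. Nkx2-3, a homeobox factor, ranged from 63.3 to 125 CPM in HSCs and from 2.41 to 4.58 CPM in CLPs. The Evi1 locus Mecom was 11.3-fold, the TALE homeobox gene Meis1 was 7.10-fold, and the bHLH factor Tal1 was 8.11-fold higher in HSCs, with adjusted p between 3.33e-10 and 8.27e-12. Factors shared by stem and progenitor cells differed less. Runx1 was called at 1.55-fold, with 265 to 323 CPM in HSCs and 133 to 223 CPM in CLPs, and Lyl1 at 1.63-fold with overlapping libraries. In O-NR libraries Runx1 was not called, with a log2 change of 0.17. The 2 factors not called were Gfi1, at 17.4 to 27.4 CPM against 16.1 to 16.5 CPM, and the erythroid factor Gata1, at 4.75 to 7.5 CPM against 2.42 to 6.21 CPM.

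Surface and secreted proteins of HSCs outside the gates showed the same direction. Of 29 listed genes present in the counts, all tested, 24 were higher in HSCs (background 16.3%) and 3 in CLPs (background 8.78%). Tie1 and Tek, receptor kinases of the angiopoietin system, were 20.4-fold and 5.59-fold higher in HSCs, and Angpt1, the ligand of Tek, was 16.1-fold higher, at 406 to 733 CPM against 23.1 to 53.8 CPM. Mmrn1, a platelet and endothelial matrix protein, lay between 367 and 546 CPM in HSCs and between 17.9 and 21.5 CPM in CLPs. The 3 genes higher in CLPs were Cd48, the SLAM receptor Cd244a, at 52.1 to 110 CPM against 4.56 to 9.02 CPM, and Cxcr4, the receptor that retains cells in the marrow, at 94.8 to 172 CPM against 24.9 to 35.9 CPM. Cdh5 and Ncam1 were not called, with log2 changes of -0.78 and 0.41; in the paired fit by replicate block Cdh5 was called higher in CLPs, at -0.73 with an adjusted p of 0.02.

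Genes known from other work to rise with age in HSCs were also far above their CLP level in these old animals. No young mice enter the comparison, so it holds no information on age. Of 27 listed genes present in the counts, all tested, 25 were higher in HSCs (background 16.3%), with a median log2 change of 3.30. Aldh1a1, a retinaldehyde dehydrogenase, was counted at 272, 163, 204 and 239 CPM in HSCs and between 5.45 and 7.07 CPM in CLPs (log2 change 5.06, SE 0.24, adjusted p 4.09e-14). Selp, which encodes P-selectin, stood at 321, 165, 267 and 218 CPM against 10.7, 7.73, 12.4 and 6.60 CPM. The caveola protein gene Cavin2 was 39.9-fold, the chaperone gene Clu 13.2-fold, and the stress regulator Nupr1 15.9-fold higher. The metallothioneins Mt1 and Mt2 had log2 changes of 3.30 and 3.38, and Mt2 was low throughout, at 4.89 to 9.50 CPM in HSCs. The 2 members not called were Perp, at 0.62, and Fyb2, at -0.25 on the log2 scale.

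Megakaryocyte and platelet genes were called mostly on the HSC side. Of 23 listed genes 21 were tested, 12 were higher in HSCs (background 16.3%) and 2 in CLPs (background 8.78%). The median log2 change was 1.38. Vwf, the von Willebrand factor that marks platelet-biased HSCs, was counted at 581, 390, 475 and 622 CPM in HSCs and at 19.7, 35.6, 45.3 and 36.8 CPM in CLPs, 15.1-fold lower. Itga2b and Itgb3, the chains of the platelet fibrinogen receptor, were 9.09-fold and 22.4-fold higher in HSCs, and the calcium channel gene Trpc6 had a log2 change of 3.35. Genes of finished megakaryocytes were called from low counts: Pf4, platelet factor 4, reached only 4.65 to 12.8 CPM in HSCs, and the glycoprotein gene Gp9 5.80 to 9.67 CPM. The late genes Ppbp and Gp1bb, at mean levels of 1.46 and 0.171 CPM in HSCs, did not pass the filter on low counts. Slc35d3 and Thbs1, both of platelet granules, were higher in CLPs, at 2.38 and 1.03 below 0 on the log2 scale; without CLP library 3 Thbs1 was not called.

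The Hox clusters of chromosomes 6 and 11 were higher in HSCs, more so for Hoxb than for Hoxa in the values below, although the difference between the clusters was not tested. Of 10 Hoxb genes 8 were tested and 7 were higher in HSCs, 2 of the 8 having passed the filter only through the HSC libraries. Hoxb8 (chr11:96281905-96285315) was counted at 20.2, 19.6, 16.7 and 16.6 CPM in HSCs and between 0.138 and 0.744 CPM in CLPs. Hoxb4, long used to expand HSCs, stood at 38.4, 23.1, 33 and 39.5 CPM against 7.99, 4.97, 5.43 and 6.32 CPM, a log2 change of 2.43 (SE 0.23, adjusted p 3.47e-09). Hoxb5, a reporter gene for long-term HSCs, was 6.18-fold higher. Hoxb7 was not called, with a log2 change of 1.15. Of 11 Hoxa genes 7 were tested and 6 were higher in HSCs. Hoxa9, used in stem and lymphoid progenitor cells alike, differed by 1.63-fold, at 49.8 to 63.8 CPM against 30.5 to 37.5 CPM, and Hoxa10 by 4.33-fold. Hoxa7 and Hoxa9 lost their call with upper quartile scaling, where their log2 changes were 0.43 and 0.50, and without HSC library 1, at 0.49 and 0.56, or CLP library 2, at 0.55 for each. Hoxa7 also lost it without CLP library 1, at 0.57. Hoxa4 was not called, although its groups did not overlap.

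**Figure D3:**
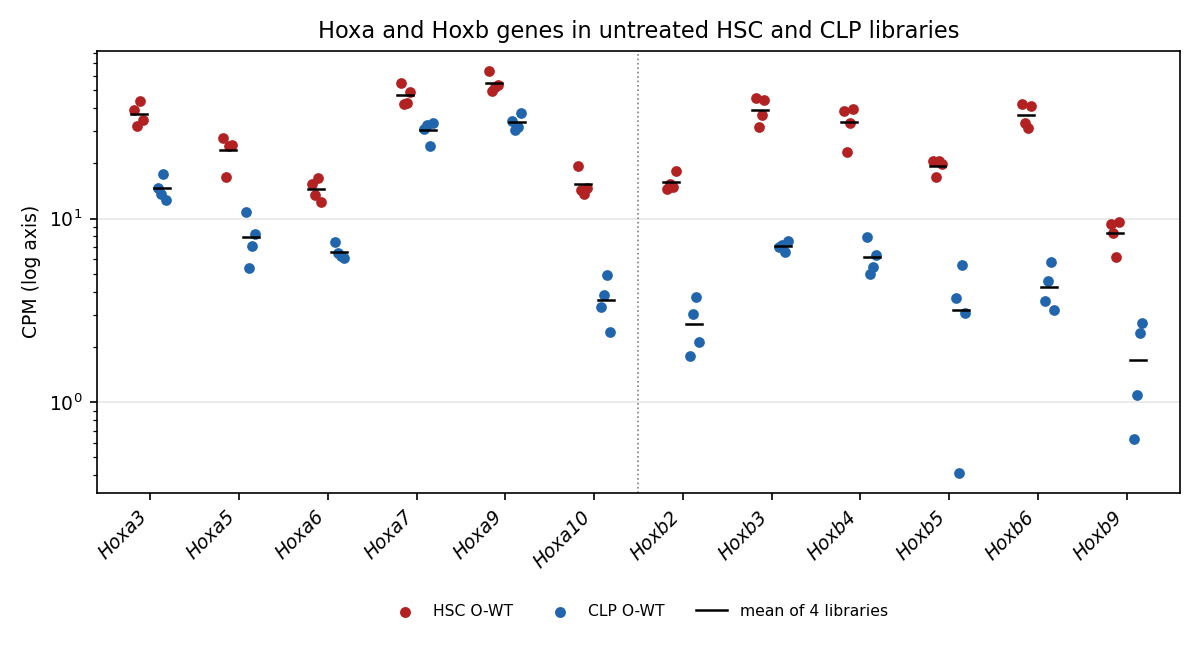
CPM on a log axis for 6 Hoxa and 6 Hoxb genes in the 4 O-WT HSC libraries (red) and the 4 O-WT CLP libraries (blue), with a black line at each mean. The red points lie above the blue points for each of the 12 genes, with the narrowest gap at Hoxa7 and Hoxa9. Hoxa4 and Hoxb7, which were tested and not called, are not plotted.

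Imprinted genes were called mostly on the HSC side. Of 26 listed genes 21 were tested, 10 were higher in HSCs (background 16.3%) and Ddc alone in CLPs (background 8.78%). The CLP count was 0 to 2 under the alternatives, with 2 in the paired fit by replicate block and without HSC library 2, and 0 without any other single library except CLP library 4. Cdkn1c, which encodes the cell cycle inhibitor p57, was counted at 36.5, 21, 25 and 32.1 CPM in HSCs and at 1.14, 2.35, 0.848 and 0.837 CPM in CLPs, a 22.3-fold difference with an adjusted p of 1.72e-11. The growth suppressor Ndn was 12.7-fold, the adaptor Grb10 8.83-fold, and the noncoding RNA Meg3 5.48-fold higher, and Dlk1, from the same imprinted region as Meg3, was 4.94-fold higher. H19 and Igf2, at mean levels of 2.27 and 1.85 CPM in HSCs, stayed below the filter. Peg3, Mest and Gnas were not called; Peg3 had means of 22 and 22.1 CPM, and the others log2 changes of -0.34 and 0.33.

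Transporters and detoxifying enzymes leaned to HSCs. Of 23 listed genes 22 were tested and 12 were higher in HSCs (background 16.3%), with a range of 9 to 14 under the alternatives. Abcg2, the pump behind the dye-excluding side population of HSCs, was counted at 86.9, 68.1, 79.1 and 93.5 CPM in HSCs and at 20.7, 15.5, 25.8 and 17.9 CPM in CLPs. Gstm1, a glutathione transferase, stood at 75.2 to 119 CPM against 10.8 to 12.4 CPM, 8.21-fold apart. The multidrug transporters Abcb1a and Abcb1b had log2 changes of 1.73 and 0.99. Catalase and the peroxidase gene Gpx1 were not called, at 0.13 and -0.34.

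Enzymes of glycolysis were higher in HSCs as well, but by less. Of 25 listed genes, all tested, 15 were higher in HSCs (background 16.3%) and 1 in CLPs (background 8.78%). The median log2 change was 0.807, and under the alternatives the HSC count ranged from 10 to 15. Hk2 and Hk1, hexokinases that admit glucose to the pathway, were 3.23-fold and 3.68-fold higher in HSCs. Slc2a3, a glucose transporter, was counted at 200, 115, 158 and 176 CPM in HSCs and at 32.6, 25.2, 31.2 and 36.1 CPM in CLPs. Ldhb, the lactate dehydrogenase chain favoured in oxidative tissue, differed by 8.88-fold and Ldha by 1.72-fold. Slc16a1, a lactate transporter, was the only listed gene called higher in CLPs, at 40.9 to 60.8 CPM against 23.4 to 32.5 CPM. Gapdh, Pgk1 and Eno1 were not called, with log2 changes of -0.23, 0.06 and 0.18.

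Transcription factors of lymphoid specification were mostly higher in CLPs. Of 32 listed factors 31 were tested, 18 were higher in CLPs against a background of 8.78% and 3 in HSCs. Ebf1 was counted at 316, 259, 157 and 204 CPM in CLPs and at 4.55, 11.3, 10.5 and 6.09 CPM in HSCs, a log2 change of -4.86 (SE 0.30, adjusted p 1.28e-12). Pax5 stood at 338, 263, 137 and 189 CPM against 4.75, 8.36, 10.2 and 5.85 CPM. Libraries 1 and 2 were above libraries 3 and 4 for both genes in CLPs, and no library came near the HSC range. Satb1, a chromatin organizer of lymphoid progenitors, was 29.6-fold, Irf8, a factor of B cells and dendritic cells, 24.5-fold, and Notch1 3.79-fold higher in CLPs. The widely used E protein gene Tcf3 and Ikzf1, which encodes Ikaros, differed by less, with log2 changes of -0.80 and -1.61. The 3 factors higher in HSCs were Gata3 (3.66-fold), which HSCs are known to use, Tox (2.01-fold) and Zbtb7a (1.62-fold). Zbtb7a was not called with upper quartile scaling, at a log2 change of 0.49, or without any single library other than HSC libraries 2 and 3 and CLP library 4, at 0.54 to 0.65. Bcl11a, Mef2c, Id2 and Hhex were not called, and Bcl11b, which marks T cell commitment, was low in both, at means of 3.85 and 5.76 CPM.

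The enzymes of V(D)J recombination held the largest change of the contrast. Dntt, terminal deoxynucleotidyl transferase (chr19:41029275-41059525), was counted at 1870, 1760, 1070 and 1940 CPM in CLPs and at 1.94, 4.35, 5.11 and 2.80 CPM in HSCs. Its log2 change of -8.88 (SE 0.41, adjusted p 2.50e-14) is a 472-fold difference, and the HSC values lay in or near the range of the receptor gene averages. Rag1 stood at 714, 566, 336 and 569 CPM against 4.26, 7.47, 8.80 and 4.8 CPM, and Rag2 at 78.2 to 131 CPM against 1.12 to 4.24 CPM. Of the general end-joining proteins, Xrcc6, which encodes Ku70, was 4.33-fold higher in CLPs, while Xrcc5, its partner Ku80, was not called, at 0.25 on the log2 scale. Xrcc4 and Paxx were called higher in HSCs at 0.71 and 0.78 with overlapping libraries. Neither call held with upper quartile scaling, at 0.48 and 0.57, or without HSC library 1 or 4 or CLP library 2 or 4, and Xrcc4 also lost it without CLP library 1 and Paxx without HSC library 3. In all, 7 of 12 tested members were higher in CLPs, and 4 when no gene was filtered.

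Early B cell genes followed. Of 24 listed genes, all tested, 17 were higher in CLPs (background 8.78%), 6 of the 24 having passed the filter only through the CLP libraries. Ly6d, which separates B-biased CLPs from the rest (chr15:74762056-74763620), was counted at 120, 91.1, 61.1 and 104 CPM in CLPs and at 0.969, 0.780, 0.326 and 0.801 CPM in HSCs, 127-fold apart. Cd79a, the Igα chain of the B cell receptor, stood at 108, 96.4, 55 and 72.1 CPM against 0.892 to 1.55 CPM. Vpreb1 and Igll1, the surrogate light chain, had log2 changes of -5.17 and -4.78, and the adaptor gene Blnk of -4.81. CLP libraries 1 and 2 were again the highest for Cd79a, Vpreb1, Igll1 and Blnk, while Ly6d was second highest in library 4. Among the 7 members not called were the kinase genes Lyn, at -0.21, and Btk, which at -0.56 passed the adjusted p but not the fold. Early T cell genes were few, with 10 of 17 tested, 5 higher in CLPs and 1, Gata3, in HSCs. Lck lay between 45.8 and 63.4 CPM in CLPs and between 9.67 and 10.3 CPM in HSCs, and the T cell receptor constant genes Trac, Trbc1 and Trbc2 stayed below the filter.

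Receptors and homing molecules of lymphoid cells went both ways. Of 28 listed genes 27 were tested, 11 were higher in HSCs and 9 in CLPs, and leaving out CLP library 2 lowered the first number to 7. The chemokine receptors Ccr7 and Ccr9, which guide cells to lymph node, thymus and gut, had log2 changes of -4.68 and -2.28. Itga4, an integrin of marrow retention, was 2.74-fold higher in CLPs. Among the members higher in HSCs were Jak3, the kinase bound to the common γ chain, at 166 to 251 CPM against 47.7 to 71.1 CPM, Stat5a at a log2 change of 1.46, and the feedback inhibitors Socs3 and Cish at 2.88 and 2.06. Stat5b, the close relative of Stat5a, was not called, at 0.42. Cish varied within HSCs, at 81.9, 36.1, 50.9 and 156 CPM. The lymphotoxin gene Ltb was 6.41-fold higher in HSCs.

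Myeloid genes were called in both directions. Of 18 listed members 15 were tested, 6 were higher in CLPs (background 8.78%) and 3 in HSCs (background 16.3%). The HSC count is near its background. Mpo, myeloperoxidase of granule precursors, was counted at 257, 228, 367 and 411 CPM in CLPs and at 2.33, 5.24, 5.32 and 5.21 CPM in HSCs, a log2 change of -6.12 with an adjusted p of 5.33e-14. Elane, neutrophil elastase, was also higher in CLPs, at 9.93 to 29 CPM against 0.291 to 0.780 CPM, as were Ctsg and the factor Cebpa. The other neutrophil serine protease, Prtn3, was higher in HSCs, at 139, 73.3, 103 and 112 CPM against 8.88, 13.4, 23.9 and 12.4 CPM, and so were Cebpb and lysozyme Lyz2. Spi1, which encodes PU.1, was not called, at 21.1 to 45.6 CPM in HSCs and 25.3 to 35.9 CPM in CLPs. Of 23 receptors for stem cell and myeloid cytokines 8 were higher in HSCs and 5 in CLPs. The receptor for G-CSF, Csf3r, was 5.49-fold higher in HSCs, and that for M-CSF, Csf1r, 2.67-fold higher in CLPs. Tgfbr3, a TGF-β co-receptor, lay between 162 and 176 CPM in HSCs and between 22.1 and 27.6 CPM in CLPs.

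Markers of mature cells stood beside these values. Neutrophil markers were higher in CLPs for 6 of 7 members tested, 4 of which passed the filter only through CLP libraries, and their summed level was 64.7 to 220 CPM in the O-WT CLP libraries against 19.9 to 27.5 CPM in HSCs. S100a9 was counted at 36.1, 12.6, 30.5 and 62.8 CPM in O-WT CLPs and at 48, 20.3, 0.284 and 0.973 CPM in O-NR CLPs. Mpo stood at 462, 393, 397 and 320 CPM in the O-NR CLP libraries. Dendritic markers were higher in CLPs for 6 of 10 tested and in HSCs for 1. Those higher in CLPs included Siglech, a marker of plasmacytoid dendritic cells, at 16 to 48.4 CPM against 1.16 to 3.01 CPM. They also included Cox6a2, at 24.4 to 44.8 CPM against 0.291 to 1.11 CPM. That list also holds Flt3 and Ccr9, which CLPs use themselves. Macrophage markers were higher in CLPs for 3 of 8, or 5 in the paired fit by replicate block. The complement genes C1qa, C1qb and C1qc were below the filter in both cell types. Endothelial or stromal markers were higher in CLPs for 3 of 10 and in HSCs for 1. Their CLP number was 6 without HSC library 2 and 7 in the paired fit. Hemoglobin genes were at means of 0.232 to 1.24 CPM. Carbonic anhydrase Car2, listed as erythroid, was 13.7-fold higher in HSCs, at 280 to 472 CPM. Mature T, NK and innate lymphoid markers were higher in CLPs for 4 of 11 tested and in HSCs for 2. Their sums were 105 to 133 CPM in HSCs and 92.2 to 129 CPM in CLPs. Over all genes tested in O-WT, 8.78% were higher in CLPs and 16.3% in HSCs. The lineage gate described for HSCs used antibodies to Mac1, Gr1, CD3, B220 and Ter119, and CLPs are defined as lineage-negative. The part of mature cells in the myeloid and dendritic differences was not tested.

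Immunoglobulin transcripts varied widely among the O-WT HSC libraries. Ighm, the μ heavy chain, whose unrearranged locus is transcribed in lymphoid progenitors, was counted at 650, 540, 344 and 570 CPM in O-WT CLPs and at 89.8, 16.9, 114 and 481 CPM in O-WT HSCs. In O-NR libraries it stood at 592, 689, 545 and 562 CPM in CLPs and at only 15.9, 1.80, 1.95 and 2.16 CPM in HSCs. The test of whether the contrast differs with NR called this gene: the HSC to CLP difference was 5.11 log2 units larger with NR (SE 0.79, adjusted p 0.00459), and this was no longer called without O-WT CLP library 2, where the smallest adjusted p was 0.0677. Ighm was called when any other of the 16 libraries was left out, O-WT HSC library 4 included (adjusted p 0.0216). DESeq2 did not call it, at an adjusted p of 0.204. Igkc, the κ light chain constant gene of cells past light chain rearrangement, was higher in O-WT HSCs, at 75.0, 19.1, 94.8 and 316 CPM against 0.509 to 8.88 CPM in CLPs. Jchain, a protein of antibody-secreting cells, ran in the same order over the HSC libraries, at 13.3, 5.68, 14.1 and 32.6 CPM. Library 4 was highest and library 2 lowest for all 3 genes. The plasma and mature B cell list, which includes Igkc and Jchain, was called in both directions in O-WT. Of 9 members tested 3 were higher in HSCs (background 16.3%) and 3 in CLPs (background 8.78%). Ms4a1, Cr2 and Fcer2a of mature B cells were not called. The list summed to 615 CPM in HSC library 4 and to 195 to 244 CPM in the other 3. The part of antibody-secreting cells in the O-WT HSC libraries was not tested.

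Genes of DNA replication, histone supply and mitosis were called on the CLP side for nearly every member listed. Of 35 listed genes of mitosis, all tested, 35 were higher in CLPs, with a median log2 change of -2.95. Of 44 listed replication genes 41 were higher, with a median of -1.63. Of 69 replication-dependent histone genes 56 were tested and 53 were higher, with a median of -3.45. Of the 56, 3 had passed the filter only through libraries of 1 cell type. No member of the 3 lists was called higher in HSCs by edgeR, DESeq2 or any other alternative, and over those alternatives the counts stayed at 34 to 35, 39 to 42 and 52 to 54. Of all genes tested 8.78% were higher in CLPs, a share given as a description, since the lists were chosen with earlier results known.

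Mki67, the proliferation antigen Ki-67, was counted at 1860, 1750, 1100 and 1880 CPM in CLPs and at 72.9, 78.8, 134 and 160 CPM in HSCs, 14.8-fold apart. Top2a, the topoisomerase that untangles replicated DNA, stood at 918, 895, 564 and 1050 CPM against 37.6, 54.7, 62.2 and 77.5 CPM. The mitotic kinase gene Plk1 was 12-fold, the cyclin gene Ccnb1 8.15-fold, and the kinesin gene Kif11 13.5-fold higher in CLPs, with adjusted p between 1.34e-12 and 5.01e-10. CLP library 3 was the lowest of the 4 for Mki67, Top2a, Plk1, Kif11 and Ccnb1, and still above each HSC library. Among replication genes Rrm2, the regulated subunit of ribonucleotide reductase, differed most, at 78.2 to 132 CPM against 5.23 to 8.91 CPM. The helicase subunit gene Mcm5 was 4.32-fold and the sliding clamp gene Pcna 3.20-fold higher in CLPs. Chaf1b, Gins4 and Rfc3 were the 3 not called, with log2 changes of 0.30, -0.14 and -0.50. Hist1h1b, a linker histone gene, was counted at 332, 335, 193 and 289 CPM in CLPs and at 1.36, 3.79, 9.56 and 13.5 CPM in HSCs, and Hist1h3c differed by 25.9-fold. Histone genes of a family are nearly identical in sequence, so single members are uncertain where reads could be shared among copies.

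The controllers of G1 were called more often on the CLP side. Of 23 listed genes 21 were tested, 10 were higher in CLPs (background 8.78%) and 4 in HSCs (background 16.3%). The HSC count is near its background. With no filter on low counts 5 were higher in CLPs. Cdk6, the G1 kinase that sets how readily HSCs leave quiescence, was counted at 1020, 737, 503 and 964 CPM in CLPs and at 259, 211, 244 and 272 CPM in HSCs. The inhibitor genes went in opposite directions: Cdkn1c was among the HSC genes above, while Cdkn1a, which encodes p21, was 6.02-fold and Cdkn2c 4.00-fold higher in CLPs. Rbl2, the p130 pocket protein of resting cells, was 2.31-fold higher in HSCs. Ccnd1 was called higher in HSCs at 1.87-fold, with HSC library 4 at 69.0 CPM beside 40.4, 23.5 and 31.4 CPM. Its log2 change of 0.90 was 0.53 and not called without HSC library 4, and the call was also lost without CLP library 1 or 2 and with upper quartile scaling, at 0.73, 0.71 and 0.68. Ccnd2, Cdkn1b, Rb1 and Trp53 were not called, and Cdkn2a, the p16 locus, stayed below the filter at means of 0.624 and 0.917 CPM.

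**Figure D4:**
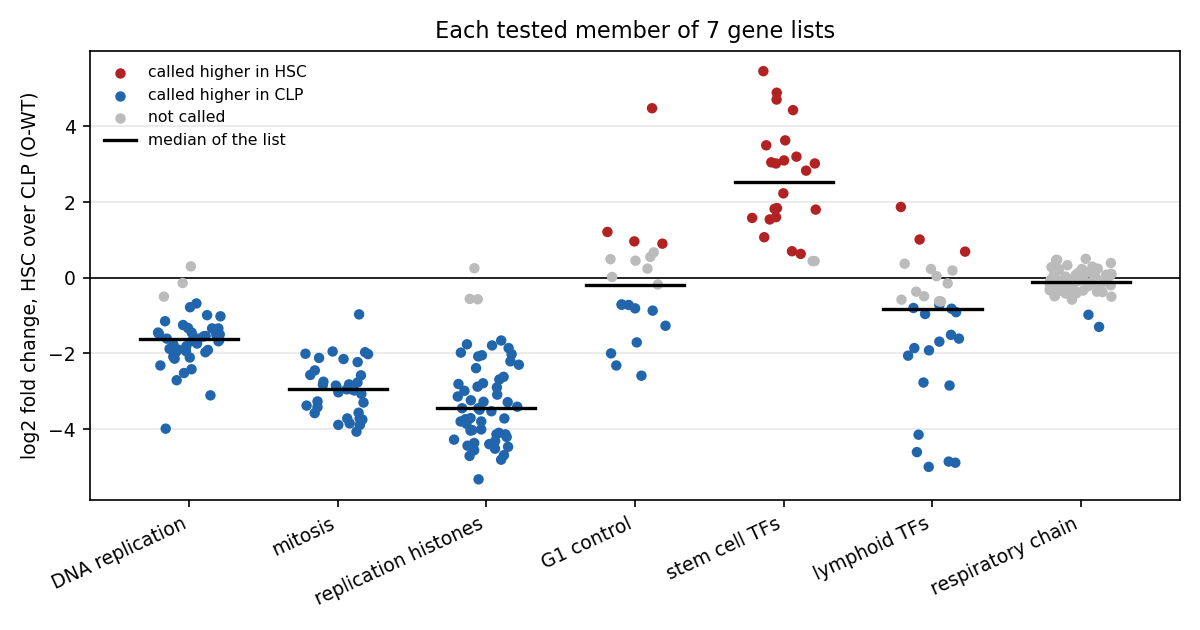
Log2 fold change of HSC over CLP in O-WT for each tested member of 7 lists, coloured by the call, with a black line at each median. The replication, mitosis and histone members lie below 0 almost without exception, the stem cell factors lie above it, and the respiratory chain members sit close to 0.

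The promoters of the proliferation genes shared short sequence words, shown here because their genes moved together. RefSeq promoter windows of 300 bases, 250 before and 50 after each annotated start in GRCm38.p6, matched 13456 of the 19828 genes tested, with 17084 windows. Words were searched on both strands. The word CCAAT, the box bound by NF-Y, was present in 77.4% of the 31 windows of called mitosis genes and in 37.3% of all windows. The word TTTGAA, the core of the cell cycle genes homology region (CHR), was in 74.2% of mitosis windows against 13.6% of all, and it began within 50 bases of the start in 67.7% against 3.40%. Windows with both words made up 64.5% of the mitosis set, 9.59% of the windows of genes higher in CLPs and 3.67% of those higher in HSCs. In windows of replication genes CCAAT was present in 59%. TTTGAA was in 12.8% of their 39 windows, while TTCCCGC or TTGGCGC, letters of E2F sites, were in 46.2%, against 10.1% of all windows and 19.4% of mitosis windows. The GATA word AGATAA was found in 3 of 26 windows of stem cell factors, or 11.5%, against 8.07% of all windows. A match is a description of letters, and binding was not measured.

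The windows of the 4 called mitosis genes with the smallest p and both words in a single window, and of the 3 replication genes with the smallest p and an E2F word, read as follows from 5′ to 3′ on the gene's strand. Genes with several windows, and those on an autosome that was set aside, were not eligible. Capitals mark CCAAT and TTTGAA, or their reverse complements, in the mitosis genes, and TTCCCGC and TTGGCGC, or their reverse complements, in the replication genes. Adjacent capitals can hold overlapping words, as in Ube2c, where the box occurs on both strands. Plk1 lies on chr7:122159185-122159484 (+), Ube2c on chr2:164769679-164769978 (+), Kif11 on chr19:37376132-37376431 (+) and Top2a on chr11:99024140-99024439 (-). Cdc6 lies on chr11:98907901-98908200 (+), Mcm5 on chr8:75109259-75109558 (+) and Prim1 on chr10:128014965-128015264 (+).
Plk1: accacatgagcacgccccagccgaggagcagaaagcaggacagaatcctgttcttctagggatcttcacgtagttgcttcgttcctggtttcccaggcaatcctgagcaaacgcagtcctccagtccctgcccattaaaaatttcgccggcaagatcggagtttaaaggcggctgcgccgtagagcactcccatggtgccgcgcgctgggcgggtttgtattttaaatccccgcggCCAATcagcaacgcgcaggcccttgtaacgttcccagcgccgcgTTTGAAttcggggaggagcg
Ube2c: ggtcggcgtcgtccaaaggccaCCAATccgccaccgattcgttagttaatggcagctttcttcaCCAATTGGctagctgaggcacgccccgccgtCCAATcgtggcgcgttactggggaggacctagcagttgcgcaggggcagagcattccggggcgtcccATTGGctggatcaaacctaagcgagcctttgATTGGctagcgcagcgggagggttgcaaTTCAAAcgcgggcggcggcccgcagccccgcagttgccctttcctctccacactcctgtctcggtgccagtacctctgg
Kif11: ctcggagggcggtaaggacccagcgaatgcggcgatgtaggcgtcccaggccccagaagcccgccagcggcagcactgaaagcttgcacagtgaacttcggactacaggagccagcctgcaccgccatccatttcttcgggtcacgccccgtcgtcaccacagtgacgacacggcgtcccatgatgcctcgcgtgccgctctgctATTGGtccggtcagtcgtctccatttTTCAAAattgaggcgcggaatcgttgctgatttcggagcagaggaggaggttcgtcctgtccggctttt
Top2a: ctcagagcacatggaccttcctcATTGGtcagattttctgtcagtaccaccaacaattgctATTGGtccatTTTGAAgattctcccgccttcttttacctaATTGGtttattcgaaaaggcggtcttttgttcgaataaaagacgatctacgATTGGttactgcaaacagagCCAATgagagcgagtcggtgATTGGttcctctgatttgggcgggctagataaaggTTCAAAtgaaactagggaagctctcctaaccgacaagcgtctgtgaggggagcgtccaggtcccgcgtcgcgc
Cdc6: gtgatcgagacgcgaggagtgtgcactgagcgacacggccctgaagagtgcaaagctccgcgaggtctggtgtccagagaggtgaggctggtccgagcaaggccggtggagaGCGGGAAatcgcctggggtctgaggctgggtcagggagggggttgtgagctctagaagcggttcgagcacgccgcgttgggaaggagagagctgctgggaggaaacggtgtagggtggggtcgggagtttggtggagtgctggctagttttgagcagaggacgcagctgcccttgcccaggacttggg
Mcm5: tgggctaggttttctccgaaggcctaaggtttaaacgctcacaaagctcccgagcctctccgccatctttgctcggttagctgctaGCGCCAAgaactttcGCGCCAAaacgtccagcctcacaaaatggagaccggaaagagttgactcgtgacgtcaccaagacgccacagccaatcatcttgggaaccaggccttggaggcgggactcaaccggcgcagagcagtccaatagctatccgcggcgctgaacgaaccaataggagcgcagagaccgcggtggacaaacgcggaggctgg
Prim1: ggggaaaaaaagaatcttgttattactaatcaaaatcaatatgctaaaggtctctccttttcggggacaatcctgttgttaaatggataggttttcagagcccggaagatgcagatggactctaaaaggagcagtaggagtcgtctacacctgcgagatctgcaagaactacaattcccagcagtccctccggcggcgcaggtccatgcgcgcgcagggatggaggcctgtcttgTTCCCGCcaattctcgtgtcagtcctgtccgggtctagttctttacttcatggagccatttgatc

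In Top2a, which held 6 CCAAT words and 2 TTTGAA words, the downstream TTTGAA began 23 bases before the start, and in Kif11 and Ube2c it began 19 and 29 bases before it. Plk1 had its CCAAT 14 bases before and its TTTGAA 30 bases after the start used by RefSeq. All 7 genes with a printed window were called higher in CLPs, Cdc6 by 5.34-fold and Prim1 by 3.14-fold.

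Of 62 nuclear genes of the respiratory chain, all tested, 2 were higher in CLPs, Cox5a and Cycs, with a median log2 change of -0.105. This depended on scaling and filter, with 10 higher in CLPs under upper quartile scaling and 11 at the minimum of 10 CPM, on HSC library 1, with 8 when it was left out, and on CLP library 3, with 7. Without HSC library 2 there were 2 higher in HSCs, and without CLP library 4 there was 1. In O-NR 16 of 62 were higher in CLPs, where 13.2% of all genes tested were. Of 33 genes of ribosome biogenesis and the Myc family 1 was higher in CLPs and 2 in HSCs. Upper quartile scaling moved these to 4 and 1, and single left-out libraries gave 0 to 2 in CLPs and 1 to 4 in HSCs, with 4 without HSC library 2. Myc itself was not called, at 100 to 263 CPM in HSCs and 117 to 233 CPM in CLPs. Mycn, the other family member used by HSCs, was 23.1-fold higher in HSCs (log2 change 4.53, adjusted p 2.45e-12). The DNA methyltransferase genes Dnmt3a, at a mean of 119 CPM in each cell type, and Dnmt3b, at 55.5 and 55.2 CPM, were not called, while the maintenance pair Dnmt1 and Uhrf1, which follow replication, were 2.10-fold and 8.61-fold higher in CLPs. Of 10 MHC class II genes tested in O-WT, those called were higher in CLPs: H2-Ob, the chain that restrains peptide loading, at 93.6 to 169 CPM in CLPs against 5.77 to 10.6 CPM, and H2-DMb2. A single member was called higher in HSCs without HSC library 2, and in O-NR 4 were higher in HSCs and 2 in CLPs. In the Bcl2 family 3 of 14 tested genes were higher in HSCs and 4 in CLPs. Over all genes tested the shares were 16.3% and 8.78%. The first number was 1 without HSC library 1 and 5 without HSC library 2, and the second 2 without CLP library 1, with Bcl2 and Mcl1 not called, at -0.46 and 0.51.

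Immediate early genes, which respond to growth signals and to handling, were higher in HSCs for 11 of 26 tested and in CLPs for 5, or for 3 with no filter on low counts. Egr1 was counted at 56.7, 25.7, 58.8 and 66.0 CPM in HSCs and at 11.7 to 17.7 CPM in CLPs, and Ier3 had a log2 change of 3.62. Fos and Jun were not called, at 0.34 and 0.49. Sort time and temperature are not given by cell type, and their part was not tested.

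**Figure D5:**
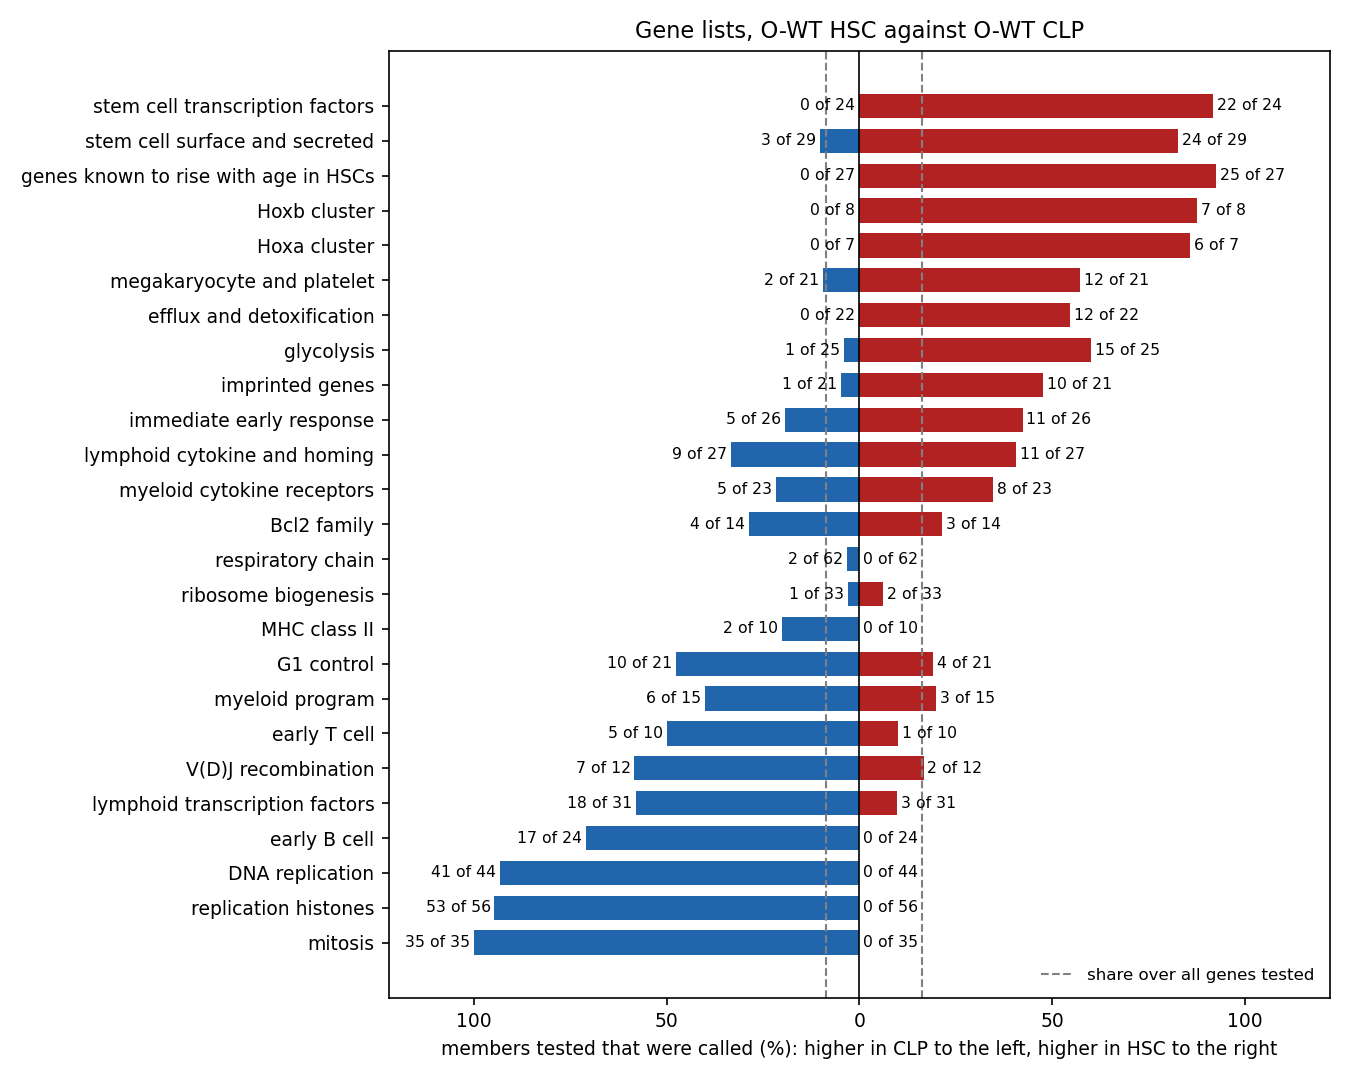
Share of tested members called higher in CLPs (blue, to the left) and higher in HSCs (red, to the right) for 25 gene lists in O-WT, with the number of members beside each bar; dashed lines mark 8.78% and 16.3%, the shares over all genes tested. The stem cell and Hoxb lists extend to the right, the mitosis, histone and replication lists to the left.

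Some genes with the smallest p or the largest folds that were not named above are described last. Among those higher in HSCs, Hacd4, of very long chain fatty acid synthesis, and Ifitm1, an interferon-induced membrane protein, were 27.9-fold and 25.3-fold higher. Cldn5, a tight junction protein of endothelium, had the largest fitted change toward HSCs of the genes tested, 6.40 on the log2 scale, from 51.8, 15.6, 34.7 and 22 CPM in HSCs and 0.000 to 1.19 CPM in CLPs. Tgm2, tissue transglutaminase, was counted at 609, 315, 390 and 541 CPM against 5.96, 8.69, 12.4 and 9.86 CPM, and Trim47 at 174 to 374 CPM against 1.93 to 5.39 CPM. Pdzk1ip1, a member of the list of surface and secreted proteins, and Gng11 were 23-fold and 49-fold higher. Among those higher in CLPs, the macrophage pore protein gene Mpeg1 was counted at 271, 208, 173 and 302 CPM in CLPs and 3.10 to 5.54 CPM in HSCs, and BC035044 at 88.7 to 144 CPM against 0.581 to 2.17 CPM. Each of these genes was called in the same direction in O-NR.

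Calls also differed by kind of transcript, without a test of that difference. Of 15659 protein-coding genes tested 18.8% were higher in HSCs and 9.73% in CLPs. Small noncoding RNA genes, such as snoRNA genes, were higher in HSCs for 47 of 128, or 36.7%, and higher in CLPs for 6, and the O-NR libraries gave 42 and 6 of 109. Of 2102 long noncoding RNA genes 6.57% were higher in HSCs and 5.04% in CLPs. The share also moved with the level of a gene: below a mean of 10 CPM 5.12% of genes were higher in HSCs, against 24.2% to 26.4% in the higher level classes.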

How the data were processed

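RNA from sorted HSCs and CLPs was sequenced by the authors as stranded, ribosome-depleted total RNA (SMARTer pico input kit). Per the study's methods, reads were trimmed with cutadapt through trim galore, aligned to mm10 with STAR and counted per gene with featureCounts on Gencode M22; tool versions, the strand setting and the treatment of reads with several alignments were not given in the sources used here. The deposited values are raw read counts per gene symbol. The annotation used here was Gencode M21, which held 54510 of the 55376 symbols.

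Counts were tested with edgeR 4.0.16 in R 4.3.3 (TMM scaling, quasi-likelihood test, Benjamini-Hochberg adjustment over all genes tested). Genes needed more than 3 CPM in at least 4 of the 8 libraries. A call needed an adjusted p below 0.05 and a fold over 1.5. Log2 fold changes are HSC over CLP, and tests were 2-sided. The O-NR libraries were fitted separately, and the dependence on NR as an interaction over 16 libraries. Lists were described by counts and medians, without set tests. Some tested members passed the filter in O-WT only through libraries of 1 cell type. This held for 1 member each of the lists of stem cell factors, surface and secreted proteins, age-related genes, megakaryocyte genes and imprinted genes. It also held for 1 each of the lymphoid factor, early T cell, lymphoid receptor, myeloid, G1, immediate early, Bcl2, dendritic and plasma cell lists. The T, NK and innate lymphoid list had 2. The members and lists were chosen with earlier results of these data known. Genes named are the sort antigens and markers, per direction the 10 called genes with the smallest p and the 5 with the largest fold at 30 CPM or more, and in each list the first 4 members and up to 3 called members per direction; other named genes were chosen after their values were seen. Some genes that this rule names are not reported here. Median counts per library were near 11187022 in O-WT HSCs and 7680668 in O-WT CLPs, and no library pair agreed within sampling noise. The fit was tested on simulated data. Alternatives were DESeq2 1.42.0, other scalings and filters, thinned counts, a replicate block, all 24 cohort 2 libraries in 1 fit, and leaving out each library.

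Groups share replicate numbers in the labels. Deviations of same-numbered O-WT HSC and CLP libraries from their group means correlated at 0.44, 0.11, 0.42 and 0.34, which meets the rule used for pairing (every pair over 0.1), although some pairs with different numbers reached 0.63 and 0.47. In O-NR the values did not meet it. Nothing in the labels says what a number stands for.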

Additional observations from a re-analysis of the deposited data

Results flagged for a closer look

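Single libraries that stood apart from the other three of their group, by Dixon's test at the 95% level, were found in 24 of 460 sets of 4 values examined, and chance flags about 1 in 20. In the O-WT HSCs, library 1 was apart for BC035044 at 0.581 CPM, Mpo at 2.33 CPM, Flt3 at 19.7 CPM, Hoxa10 at 19.4 CPM, Cdkn2c at 2.81 CPM and H2-DMb2 at 2.03 CPM. HSC library 2 was apart for Vpreb1 at 1.23 CPM. HSC library 4 was apart for Mcm2 at 96.6 CPM, Birc5 at 6.41 CPM and the summed plasma and mature B cell list at 615 CPM. In the O-WT CLPs, library 3 was low for Mcm2 at 108 CPM, Mki67 at 1100 CPM, Ccnd3 at 152 CPM, Ldha at 95.3 CPM, Ncl at 610 CPM, Fbl at 52.2 CPM, Nop56 at 119 CPM and Uhrf1 at 197 CPM. The same library was high for Fgd5 at 22 CPM, Fhl1 at 5.26 CPM, Itga2b at 23.9 CPM and F13a1 at 51.9 CPM. CLP library 4 was apart for Tox at 33.3 CPM and Ccnd1 at 30.3 CPM.

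The HSC to CLP change of Ighm differed between O-NR and O-WT by -5.11 on the log2 scale in the edgeR interaction test (adjusted p 0.00459), and DESeq2 did not call it (adjusted p 0.204).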

How the results depend on the processing

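Of the genes picked by the naming rule, 187 called ones were refitted, giving 3536 values, of which 3371 kept the call, 165 lost it and 0 reversed. Genes named in the text outside that rule are not in these numbers. For 32 refitted genes that were not called, 14 of 600 values gained a call. The replicate block changed 0 calls of the first set and 2 of the second. Of 1330 refitted list counts 92 fell and 42 rose by over 1.5 times. A test against a fold of 1.5 left 1654 genes higher in HSCs and 986 in CLPs in O-WT, and 1764 and 1220 in O-NR. A minimum of 10 CPM left 1969 genes higher in HSCs. Leaving out 1 library gave 2299 to 3616 genes higher in HSCs and 1492 to 2182 in CLPs in O-WT, 2675 to 3252 and 1773 to 2821 in O-NR, and 0 to 1 genes whose contrast depended on NR. DESeq2 called 1 such gene, Cd83 at an adjusted p of 0.0177, and not Ighm, at 0.204. The paired fit with a replicate block gave 3547 and 2530 genes in O-WT and 2983 and 2065 in O-NR. Low levels in the lower cell type lie near the receptor background, which limits their folds, and the cause of these shifts was not tested.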
